A study of Mus musculus with 21 samples.

Results

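The genes described here are 8 genes of the renin-angiotensin system, Ren1, Agt, Ace, Agtr1a, Agtr2, Nr3c2, Atp6ap2 and Lnpep, taken by symbol from the 34236 gene names in a table of counts. They were read in 21 RNA-seq libraries of macrophages that had been sorted by flow cytometry from kidneys of male C57BL/6J mice aged 24 weeks. RAS stands for renal artery stenosis throughout and never for the hormone system, which is written out. Kidneys came from mice in which a cuff narrowed the renal artery (RAS) or from mice with Sham surgery, 4 weeks after the operation, and were perfused with saline and digested with enzymes. All cells passed a gate for the macrophage surface proteins F4/80 and CD64, with a sort time labelled as 5 h. They were divided by CD11b and CD11c into CD11chiMϕ (3 Sham and 4 RAS libraries), CD11cloMϕ (3 Sham and 4 RAS libraries), both labelled as derived from monocytes, and kidney-resident macrophages or KRM (4 Sham and 3 RAS libraries). The labels do not say whether each library came from a separate mouse, so the p-values below measure the spread between these libraries.

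Renin, a protease that juxtaglomerular cells of the afferent arteriole release when kidney perfusion falls, cuts angiotensinogen to angiotensin I. Angiotensin-converting enzyme (Ace), found on endothelium, on the proximal tubule brush border and on myeloid cells, trims this to angiotensin II. Angiotensin II constricts vessels and raises aldosterone through its type 1 receptor (Agtr1a), while the type 2 receptor (Agtr2) has been ascribed opposing effects. Aldosterone acts through the mineralocorticoid receptor (Nr3c2) on the distal nephron and on macrophages. Atp6ap2 encodes the (pro)renin receptor, which is also an accessory subunit of the vacuolar proton pump. Lnpep encodes an aminopeptidase of insulin-regulated vesicles that binds angiotensin IV. A narrowed renal artery is the classical setting in which this system is switched on in the kidney.

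The promoters of 4 members are shown as examples of different levels. Ren1 was near 0 and Agt low in most libraries, Ace was low in KRM and high in CD11cloMϕ, and Atp6ap2 was high in every library. Each stretch is the 250 bases before the RefSeq start on GRCm38.p6, written 5′ to 3′ on the strand of the gene, with TATAAA and GGGCGG on either strand in capitals.
Ren1: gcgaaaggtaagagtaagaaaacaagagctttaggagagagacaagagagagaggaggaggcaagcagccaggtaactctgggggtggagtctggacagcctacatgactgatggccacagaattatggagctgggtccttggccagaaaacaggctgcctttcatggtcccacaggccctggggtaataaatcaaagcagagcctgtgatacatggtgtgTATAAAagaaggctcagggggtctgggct
Agt: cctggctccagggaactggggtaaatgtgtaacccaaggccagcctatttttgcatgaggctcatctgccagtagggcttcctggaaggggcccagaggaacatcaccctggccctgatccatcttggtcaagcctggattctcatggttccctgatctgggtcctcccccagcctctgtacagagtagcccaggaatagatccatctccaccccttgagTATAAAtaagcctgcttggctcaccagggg
Ace: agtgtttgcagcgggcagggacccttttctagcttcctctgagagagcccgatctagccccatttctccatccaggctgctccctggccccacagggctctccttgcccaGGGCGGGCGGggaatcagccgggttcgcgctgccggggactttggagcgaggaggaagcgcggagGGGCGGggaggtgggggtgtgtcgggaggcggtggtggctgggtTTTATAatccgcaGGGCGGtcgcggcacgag
Atp6ap2: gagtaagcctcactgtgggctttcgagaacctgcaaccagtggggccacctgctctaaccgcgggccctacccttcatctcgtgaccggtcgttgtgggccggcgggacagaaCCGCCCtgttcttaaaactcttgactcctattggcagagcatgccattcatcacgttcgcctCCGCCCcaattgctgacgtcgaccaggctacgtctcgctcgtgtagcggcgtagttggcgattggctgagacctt
The Ren1 stretch is chr1:133350424-133350673 (plus strand), and that of Agt is chr8:124569707-124569956 (minus strand). For Ace, where the first of the 2 listed starts was used, it is chr11:105967698-105967947 (plus strand), and for Atp6ap2 it is chrX:12587509-12587758 (plus strand). Ren1 and Agt each held 1 TATAAA, no GGGCGG and at most 1 CpG. Ace held 1 TATAAA, 4 GGGCGG and 19 CpG, and Atp6ap2 held 2 GGGCGG, no TATAAA and 20 CpG. Among 32851 promoters of the same length, 12.4% held TATAAA and 32.7% held GGGCGG, with medians of 6 CpG and 52.4% G and C. Of the other members, Nr3c2 held 17 CpG, Lnpep 25 and Agtr2 3. Agtr1a was not in the promoter table. These letters describe the windows and were not tested for binding.

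Libraries held 6891142 to 18592381 counts, so that 3 counts, the limit that a count of 0 allows, correspond to 0.161 to 0.435 CPM (counts per 1000000 counts), and this limit covers counting error only. Each of 14 macrophage genes was counted in every library, with sums of 9121 to 52678 CPM. Some libraries also held RNA of kidney cells. The summed CPM of 15 markers of the proximal tubule and 16 of the distal tubule and collecting duct was above 4000 in 5 libraries: CD11chiMϕ Sham replicate 3, CD11cloMϕ Sham replicate 3, KRM Sham replicate 3, and KRM RAS replicates 2 and 3. The Sham libraries among them were rich in proximal tubule markers, and the RAS libraries were rich in distal markers. KRM RAS replicates 2 and 3 also resembled each other far more than they resembled replicate 1, with a chi-square per gene of 10.1 against 107 and 136. The same held for CD11chiMϕ RAS replicates 3 and 4, at 5.13 against 94.3 to 128 for other pairs of that group. KRM Sham replicates 2 and 4 were also close, at 7.23, but other pairs of that group were at 17.0 to 40.2. Every pair differed by more than counting error, which does not show whether they came from separate mice, and all were kept as the labels give them. Values with the 2 RAS pairs summed, called the nearest pairs below, are given beside the calls of members that this ends. With the pairs summed, 0 of 13455 genes were called for KRM against CD11chiMϕ and 0 of 13424 for KRM against CD11cloMϕ in RAS kidneys. It was 27 of 13003 for RAS against Sham in KRM and 279 of 12657 for CD11chiMϕ against CD11cloMϕ in RAS kidneys. In bulk libraries, fewer cells of a type cannot be told apart from less RNA per cell.

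Agtr2 was absent from these counts, with 0 in all 21 libraries. The authors, however, list Agtr2 among the genes of an angiogenesis pathway that they found enriched in KRM from RAS kidneys. They also report its expression in KRM from a separate qPCR experiment, which these counts do not cover. Ren1 had 0 counts in 10 of 21 libraries and more than 3 counts in 6, while Agt and Agtr1a had more than 3 counts in 14 libraries each. Nr3c2 was counted in all 21 libraries at a median of 2.31 CPM. The remaining members were detected everywhere, with medians of 37.4 CPM for Ace, 48.3 CPM for Lnpep and 315 CPM for Atp6ap2. Per kilobase of exon the median level of Atp6ap2 was 120 CPM per kb, that of Ace 7.08, that of Lnpep 3.42 and that of Ren1 0.0608. In the order of group means, the ranges of neighbouring groups overlapped for every member that was detected.

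**Figure D1:**
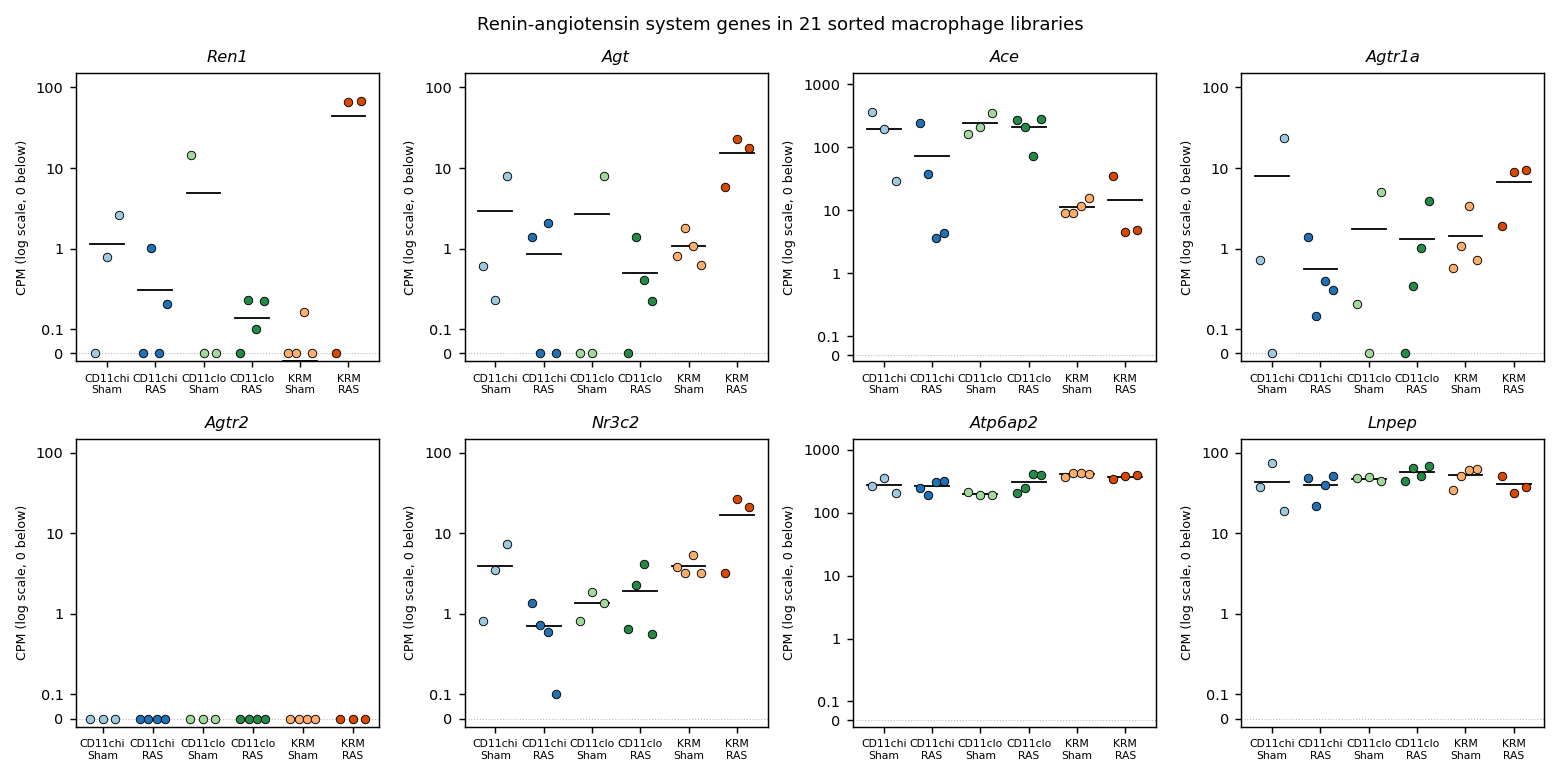
Level of each member in each library (CPM on a log axis, with 0 drawn at the bottom), by population and surgery, where points are libraries and bars are group means. Agtr2 lies at 0 throughout, Ren1 is high in 2 of the 3 KRM RAS libraries (66.0 and 67.3 CPM), and Atp6ap2 stays between 187 and 424 CPM.

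Ren1, the only renin gene of this strain (chr1:133350510-133360325, plus strand), was high in KRM from RAS kidneys, but not in all of them. The 3 KRM RAS libraries had 0, 66.0 and 67.3 CPM in replicates 1, 2 and 3. In KRM from Sham kidneys, 3 libraries had 0 and replicate 3 had 0.161 CPM, which is 3 counts. CD11chiMϕ had 0, 0.797 and 2.63 CPM in Sham and 0, 1.02, 0 and 0.206 CPM in RAS kidneys. CD11cloMϕ had 14.5, 0 and 0 CPM in Sham and 0, 0.231, 0.101 and 0.226 CPM in RAS kidneys. The groups overlapped in every comparison, and Ren1 did not pass the filter on low counts in any comparison of 2 groups. It was above 3 CPM in only 3 of 21 libraries.

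Markers of other kidney cells moved with Ren1. KRM RAS replicates 2 and 3 held 65.5 and 47.0 CPM of Rgs5 and 53.7 and 43.6 CPM of Myh11, genes of pericytes and smooth muscle. They also held 12.1 and 5.97 CPM of Akr1b7, an aldo-keto reductase known from renin cells. In KRM RAS replicate 1, which had no Ren1, Rgs5 was at 0.112 CPM and Myh11 and Akr1b7 were at 0. Summed over 15 stromal, pericyte and smooth muscle genes, KRM had 64.4, 831 and 844 CPM in the 3 RAS libraries and 23.7 to 43.1 CPM in the Sham libraries. None of the 15 was at 0 in KRM RAS replicates 2 and 3, and 2 to 6 were at 0 in the Sham libraries. CD11cloMϕ Sham replicate 1 differed from this. It held 141 counts of Ren1 with Rgs5, Myh11 and Akr1b7 at 0. The part of these cells in the Ren1 signal was not tested.

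Agt, the angiotensinogen gene (chr8:124556534-124569706, minus strand), rose in KRM with RAS. The KRM RAS libraries had 5.80, 22.9 and 17.9 CPM, and the KRM Sham libraries had 0.801, 1.82, 1.08 and 0.626 CPM. All 3 RAS libraries lay above all 4 Sham libraries. The means were 15.5 ± 8.79 CPM (SD, n = 3) and 1.08 ± 0.528 CPM (SD, n = 4), a log2 fold change of 3.78 (SE 0.56, adjusted p = 0.0175 from edgeR). Agt was the only member called of 6 tested in this comparison, where 9.7% of 12852 genes were called. It passed the filter on low counts only through the RAS libraries, where it was high. Its adjusted p was 0.0555 to 0.0775 without KRM Sham replicate 1, 2 or 4 or KRM RAS replicate 2 or 3, and 0.0622 with KRM RAS replicates 2 and 3 summed. Of the 17 alternatives 8 called it, with adjusted p-values of 1.12e-07 to 0.160.

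Elsewhere Agt was low, with a high library among each kind of monocyte-derived Sham group. CD11chiMϕ had 0.612, 0.228 and 7.88 CPM in Sham and 1.37, 0, 2.07 and 0 CPM in RAS kidneys. CD11cloMϕ had 0, 0 and 7.97 CPM in Sham and 0, 1.38, 0.403 and 0.226 CPM in RAS kidneys. The 2 high Sham values belonged to the libraries with the most proximal tubule RNA, which held 24022 and 9278 CPM of the 15 proximal tubule markers against 223 to 516 CPM in the other Sham libraries of these populations. KRM from RAS kidneys also had more Agt than CD11cloMϕ from RAS kidneys, with a log2 fold change of 4.71 (SE 1.03, adjusted p = 0.0392 from edgeR), and the groups did not overlap. Here too Agt passed the filter on low counts only through KRM. Without CD11cloMϕ RAS replicate 2 or 4 or KRM RAS replicate 2 or 3 the adjusted p of this difference was 0.0720 to 0.151. It was 0.138 with the nearest pairs summed, 0.0769 with 1 fit over all groups and 0.395 without the libraries richest in tubule RNA (log2 fold change 3.28), and 10 of 17 alternatives called it, at 2.97e-05 to 0.395 in all.

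In KRM RAS replicates 2 and 3 the distal tubule and collecting duct markers were high together with Agt and Ren1. Their sum over 16 genes was 145, 6548 and 4792 CPM in the 3 RAS libraries and 9.38 to 266 CPM in the Sham libraries, in which 1 to 5 of the 16 were at 0. The order was not the same in every library, since KRM RAS replicate 1 held 5.80 CPM of Agt with 145 CPM of these markers and KRM Sham replicate 3 held 1.08 CPM of Agt with 266 CPM. Umod, the uromodulin gene of the thick ascending limb, reached 2252 and 1630 CPM in KRM RAS replicates 2 and 3. Aqp2, the water channel of the collecting duct, reached 684 and 468 CPM there and was at 0 in 3 of the 4 KRM Sham libraries. Proximal tubule markers did not follow the same order, with 2594, 1444 and 1248 CPM in KRM from RAS kidneys and 660 to 4504 CPM in KRM from Sham kidneys. Without the 5 libraries richest in tubule RNA, which leaves KRM RAS replicate 1 alone in its group and assumed to vary like the others, the log2 fold change of Agt between RAS and Sham was 2.26 (adjusted p = 0.0974 from edgeR).

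**Figure D2:**
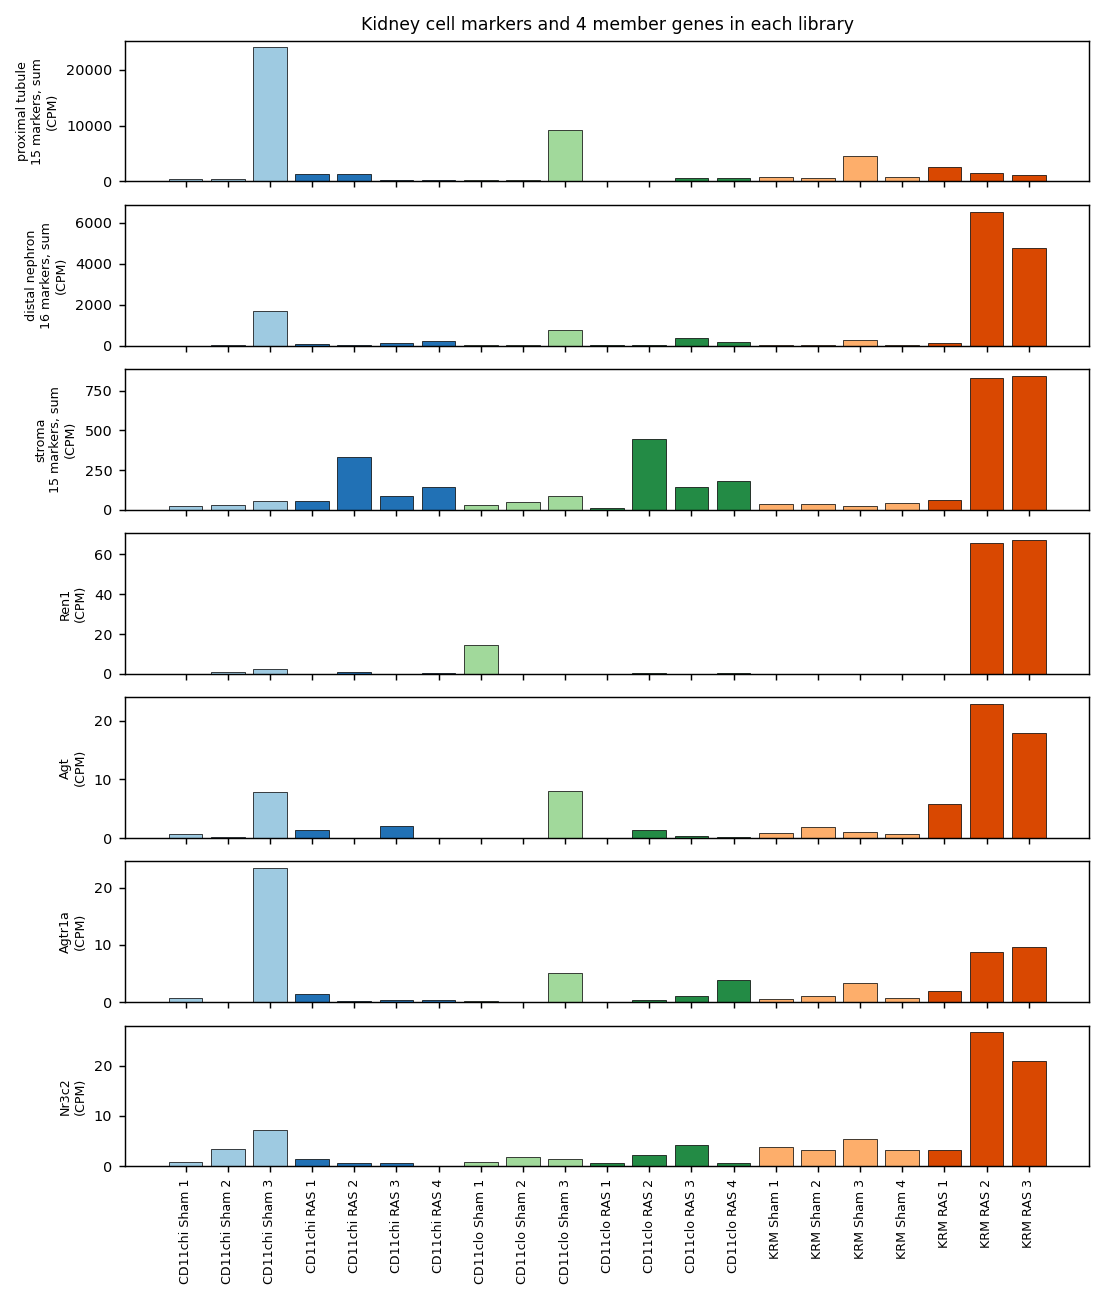
Summed level of the proximal tubule, distal tubule and collecting duct, and stromal markers (top 3 panels) and level of Ren1, Agt, Agtr1a and Nr3c2 (lower 4 panels) in each of 21 libraries, as bars in CPM. KRM RAS replicates 2 and 3 have the highest distal and stromal sums and the highest Ren1, Agt and Nr3c2, while Agtr1a is highest (23.4 CPM) in CD11chiMϕ Sham replicate 3, the library with the highest proximal tubule sum.

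Ace, the converting enzyme (chr11:105967945-105989964, plus strand), was lower in KRM than in both monocyte-derived populations of Sham kidneys. In Sham kidneys KRM had 9.04, 9.01, 11.8 and 15.6 CPM, CD11chiMϕ had 359, 196 and 29.5 CPM and CD11cloMϕ had 163, 208 and 354 CPM. Every KRM library lay below every library of the other populations. Against CD11cloMϕ the log2 fold change was -4.42 (SE 0.29, adjusted p = 1.58e-05 from edgeR), and all 15 alternatives called it. Against CD11chiMϕ it was -4.09 (SE 0.70, adjusted p = 0.0216 from edgeR). This second call was lost under a replicate block, by which same-numbered libraries are paired (-3.80, adjusted p = 0.133). It was also lost without CD11chiMϕ Sham replicate 1 or without any KRM Sham library, at adjusted p-values of 0.0675 to 0.0901, and it had an adjusted p of 9.13e-05 without CD11chiMϕ Sham replicate 3. Of 15 alternatives 8 called it, with adjusted p-values of 2.46e-08 to 0.133.

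In RAS kidneys Ace was at 34.4, 4.52 and 4.94 CPM in KRM, at 244, 37.4, 3.66 and 4.42 CPM in CD11chiMϕ, and at 276, 209, 71.4 and 283 CPM in CD11cloMϕ. KRM still lay below CD11cloMϕ without overlap, with a log2 fold change of -4.07 (SE 0.90, adjusted p = 0.0393 from edgeR). This call was lost without CD11cloMϕ RAS replicate 1, 2 or 4 or KRM RAS replicate 2 or 3 (adjusted p from 0.0666 to 0.141), with the nearest pairs summed (adjusted p = 0.137) and without the libraries richest in tubule RNA (-2.81, adjusted p = 0.261), while 10 of 17 alternatives called it, at 2.33e-06 to 0.261 in all. KRM and CD11chiMϕ overlapped in RAS kidneys, at -2.34 (SE 1.43, adjusted p = 0.308 from edgeR). CD11chiMϕ spread most, with replicate 1 at 244 CPM and replicates 3 and 4 near the KRM level. RAS against Sham gave log2 fold changes of -1.52 in CD11chiMϕ (SE 1.32, adjusted p = 0.682 from edgeR) and -0.16 in CD11cloMϕ (SE 0.45, adjusted p = 0.925 from edgeR).

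In KRM the comparison of RAS with Sham for Ace turned on replicate 1. With all libraries the log2 fold change was 0.28 (SE 0.69, adjusted p = 0.794 from edgeR). Without KRM RAS replicate 1 it was -1.36 (adjusted p = 0.00789), and without the 5 libraries richest in tubule RNA, where replicate 1 is the only RAS library left, it was 1.47 (adjusted p = 0.0198). Over 16 alternatives the adjusted p ranged from 0.00255 to 0.931. KRM RAS replicate 1 also held more Treml4 than the other KRM RAS libraries, 25.1 CPM against 7.43 and 7.51.

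Treml4, a receptor gene of non-classical monocytes and some macrophages, was the gene whose profile was nearest to that of Ace over 21 libraries, with a Pearson correlation of log2 CPM of 0.99 among 14504 genes. These libraries share their populations, so the correlation is a description. Treml4 was at 224, 125 and 28.4 CPM in CD11chiMϕ from Sham kidneys and at 156, 45.4, 8.99 and 10.4 CPM in CD11chiMϕ from RAS kidneys. CD11cloMϕ had 92.7, 135 and 162 CPM in Sham and 149, 108, 54.6 and 151 CPM in RAS kidneys. KRM had 15.5 to 19.1 CPM in Sham kidneys. The following genes were Serpinb10-ps, Trem3, Apoc2 and Nfe2, at correlations of 0.94 to 0.96. Of the 50 nearest genes, 3 were among the 10 non-classical monocyte markers and 3 among the 10 classical monocyte and neutrophil markers. CD11chiMϕ RAS replicates 3 and 4, with the least Ace, held the highest sums of the 10 dendritic cell markers, 4511 and 4908 CPM against 495 to 2098 CPM in the other CD11chiMϕ libraries. Whether these cells had a part in the spread of Ace was not tested. Ace overlaps an antisense gene, Gm11651, and without strand in the library kit reads of both cannot be told apart.

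**Figure D3:**
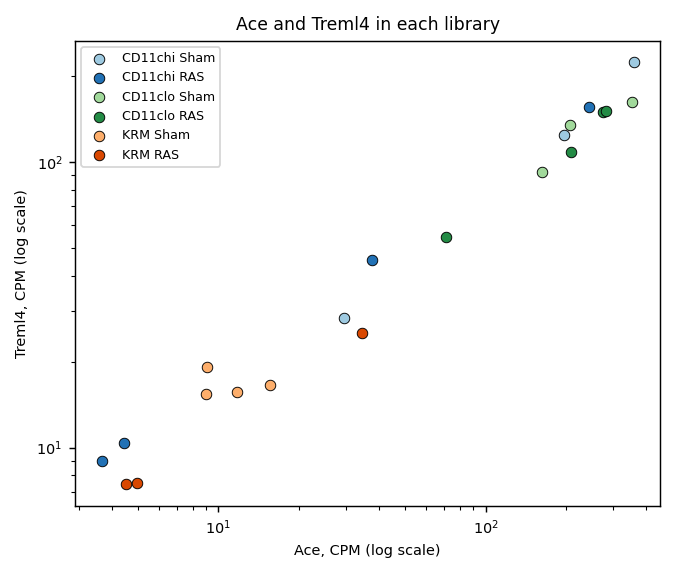
Ace against Treml4 in each of 21 libraries (CPM, both axes logarithmic), coloured by population and surgery. KRM libraries lie at low levels of both genes (4.52 to 34.4 CPM of Ace), CD11cloMϕ libraries at high levels, and CD11chiMϕ libraries run from 3.66 to 359 CPM of Ace along the same line.

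Agtr1a, the type 1 receptor (chr13:30336441-30382867, plus strand), was low in most libraries. KRM had 0.572, 1.07, 3.33 and 0.731 CPM in Sham and 1.90, 8.83 and 9.57 CPM in RAS kidneys. CD11chiMϕ had 0.713, 0 and 23.4 CPM in Sham and 1.37, 0.145, 0.395 and 0.308 CPM in RAS kidneys. CD11cloMϕ had 0.206, 0 and 5.01 CPM in Sham and 0, 0.346, 1.01 and 3.85 CPM in RAS kidneys. In each population from Sham kidneys replicate 3, the library richest in proximal tubule markers, was the highest. In RAS kidneys all KRM libraries lay above all CD11chiMϕ libraries, with a log2 fold change of 3.43 (SE 0.82, adjusted p = 0.0421 from edgeR). Agtr1a passed the filter on low counts only through KRM, where it was high, so the direction was set before the test. The call was lost without CD11chiMϕ RAS replicate 2, 3 or 4 or KRM RAS replicate 2 or 3 (adjusted p from 0.0681 to 0.184), with the nearest pairs summed (3.09, adjusted p = 0.348) and without the libraries richest in tubule RNA (1.56, adjusted p = 0.661). KRM RAS replicates 2 and 3, the higher ones, were those with the high distal marker sums. The Agtr1a call was also lost with a replicate block, with 1 fit over all groups and with limma. In all, 7 of 17 alternatives called it, at adjusted p-values of 0.00171 to 0.661. Between RAS and Sham KRM the groups overlapped, and the log2 fold change was 2.16 (SE 0.74, adjusted p = 0.0922 from edgeR). Without KRM Sham replicate 3 it was 2.99 (adjusted p = 0.0407), and over 17 alternatives the adjusted p ranged from 0.00411 to 0.667. Its near copy Agtr1b was counted in 2 libraries, at no more than 0.206 CPM, so reads of the pair could have been split at such levels.

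Nr3c2, the mineralocorticoid receptor (chr8:76899442-77245012, plus strand), was detected at a low level in KRM of both kinds of kidney. KRM had 3.78, 3.22, 5.38 and 3.24 CPM in Sham and 3.24, 26.6 and 20.995 CPM in RAS kidneys. CD11cloMϕ had 0.825, 1.87 and 1.37 CPM in Sham and 0.641, 2.31, 4.13 and 0.566 CPM in RAS kidneys. CD11chiMϕ had 0.815, 3.53 and 7.28 CPM in Sham and 1.37, 0.726, 0.593 and 0.103 CPM in RAS kidneys. In Sham kidneys every KRM library lay above every CD11cloMϕ library, with a log2 fold change of 1.51 (SE 0.43, adjusted p = 0.0230 from edgeR). Without KRM the gene would not have passed the filter on low counts. The adjusted p was 0.0781 under a replicate block, 0.0760 without CD11cloMϕ Sham replicate 1 and 0.0595 without KRM Sham replicate 3. Without the libraries richest in tubule RNA the log2 fold change was 1.33 (adjusted p = 0.0682), and the call was also lost with no filter, with 1 fit over all groups and with limma (0.0558, 0.218 and 0.0542). Of 15 alternatives 8 called it, at 0.0159 to 0.218 in all. KRM Sham replicates 1, 2 and 4 held 3.22 to 3.78 CPM of Nr3c2 with 9.38 to 11.4 CPM of the 16 distal markers. In these 3 libraries 4 to 5 of the 16 distal markers were at 0, while Umod was at 2.40 to 4.12 CPM, and the part of tubule RNA in the Nr3c2 signal was not tested.

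In RAS kidneys Nr3c2 was higher in KRM than in CD11chiMϕ without overlap, with a log2 fold change of 4.42 (SE 0.86, adjusted p = 0.0299 from edgeR). It passed the filter on low counts only through KRM, where it was high. It was not called without CD11chiMϕ RAS replicate 2, 3 or 4 or KRM RAS replicate 2 or 3 (adjusted p from 0.0623 to 0.136), nor with the nearest pairs summed (3.98, adjusted p = 0.323), nor without the libraries richest in tubule RNA (2.01, adjusted p = 0.568), and 9 of 17 alternatives called it, at 9.69e-06 to 0.568 in all. The replicate block also ended this call of KRM against CD11chiMϕ. Between RAS and Sham KRM the log2 fold change of Nr3c2 was 2.05 (SE 0.61, adjusted p = 0.0679 from edgeR) and the groups overlapped, since replicate 1 was at the Sham level. Without KRM RAS replicate 1 it was 2.49 (adjusted p = 2.76e-04), and without the 5 libraries richest in tubule RNA it was -0.22 (adjusted p = 0.920), the ends of its range over 17 alternatives. Hsd11b2, the enzyme that protects the receptor from glucocorticoids in the collecting duct, was at 368 and 262 CPM in KRM RAS replicates 2 and 3 and at 0.781 CPM in replicate 1.

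Atp6ap2, the (pro)renin receptor (chrX:12587801-12617049, plus strand), was the most abundant member per length in every group. KRM had 364, 422, 424 and 417 CPM in Sham and 336, 387 and 395 CPM in RAS kidneys. CD11chiMϕ had 260, 358 and 207 CPM in Sham and 245, 188, 311 and 315 CPM in RAS kidneys. CD11cloMϕ had 210, 190 and 187 CPM in Sham and 205, 245, 405 and 389 CPM in RAS kidneys. In Sham kidneys all KRM libraries lay above all others. The log2 fold change against CD11cloMϕ was 1.03 (SE 0.11, adjusted p = 1.97e-04 from edgeR), and all 15 alternatives called it. Against CD11chiMϕ it was 0.54 (SE 0.18, adjusted p = 0.133 from edgeR). In RAS kidneys KRM overlapped with CD11cloMϕ, at 0.03 (SE 0.31, adjusted p = 0.952 from edgeR), and RAS against Sham in CD11cloMϕ gave 0.76 (SE 0.29, adjusted p = 0.553 from edgeR). Pooled over populations, the means were 320 CPM in the 5 libraries richest in tubule RNA and 304 CPM in the other 16. Replicate 3, rich in tubule RNA, was the lowest Sham library of CD11chiMϕ and CD11cloMϕ (207 and 187 CPM) and the highest of KRM (424 CPM).

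The 14 vacuolar proton pump subunits, with which Atp6ap2 works, were all tested in the same comparison. Of them 8 were lower and 1 was higher in KRM than in CD11cloMϕ from Sham kidneys, where 41.9% of all genes were called, with a median log2 fold change of -0.49 against -0.04 over all genes tested. Atp6v1b2, Atp6v1e1 and Atp6v1a, subunits of the part that splits ATP, fell by 1.31, 1.18 and 1.18 on the log2 scale, while Atp6v0a1, a membrane subunit, was higher by 0.69 (adjusted p from 2.41e-04 to 0.00639, edgeR). Between RAS and Sham KRM 3 of the 14 rose, Atp6v1a by 1.65, Atp6v1d by 0.95 and Atp6v1c1 by 0.63 (adjusted p from 0.0295 to 0.0387, edgeR), with a median over the 14 of 0.46 against 0.02 over all genes, of which 9.7% were called. The distal tubule and collecting duct markers were higher in KRM RAS replicates 2 and 3, as given above, and their part in these values was not tested.

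Lnpep, the angiotensin IV-binding aminopeptidase (chr17:17521410-17625050, minus strand), was not called in any comparison. KRM had 34.9, 52.0, 61.3 and 63.7 CPM in Sham and 51.8, 31.6 and 37.8 CPM in RAS kidneys. CD11chiMϕ had 38.0, 74.7 and 18.9 CPM in Sham and 48.3, 21.6, 40.1 and 51.2 CPM in RAS kidneys. CD11cloMϕ had 48.3, 50.3 and 44.6 CPM in Sham and 44.1, 64.4, 51.8 and 67.7 CPM in RAS kidneys. The groups overlapped in all 9 comparisons. The lowest adjusted p was 0.101, for KRM against CD11cloMϕ in RAS kidneys, with a log2 fold change of -0.72 (SE 0.26, edgeR). Without KRM RAS replicate 1 that difference was called (-0.95, adjusted p = 0.0485, with 0.0251 to 0.615 over 17 alternatives). Of 12 aminopeptidase and insulin-regulated vesicle genes, 11 were tested between KRM and CD11cloMϕ from Sham kidneys, where 2 were higher and 3 lower in KRM, against 41.9% of all genes called, with a median of -0.39 against -0.04 over all genes. Sort1, the sortilin gene of the same vesicles, fell by 2.80 on the log2 scale (adjusted p = 4.48e-05, edgeR), and Rnpep, an aminopeptidase, by 0.95.

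Counted over members, KRM differed from CD11cloMϕ in Sham kidneys in 3 of 5 tested (Nr3c2 and Atp6ap2 higher, Ace lower), where 41.9% of all genes were called. KRM differed from CD11chiMϕ in Sham kidneys in 1 of 5 (Ace lower), against 5.13% of all genes. In RAS kidneys KRM differed from CD11chiMϕ in 2 of 6 (Agtr1a and Nr3c2 higher), against 9.23%, and from CD11cloMϕ in 2 of 6 (Agt higher, Ace lower), against 9.17%. In these comparisons Agtr1a, Nr3c2 and Agt passed the filter on low counts only through KRM, where they were high. Their direction was thus set before the test, as was that of Nr3c2 against CD11cloMϕ in Sham kidneys. CD11chiMϕ and CD11cloMϕ differed in 0 of 4 members in Sham kidneys (edgeR, 1 at an unadjusted p under 0.05), against 1.52% of all genes. In RAS kidneys they differed in 0 of 3 (edgeR, 0 at an unadjusted p under 0.05), against 8.27%. Between RAS and Sham, 0 of 5 members were called in CD11chiMϕ and 0 of 4 in CD11cloMϕ (edgeR, 1 in each at an unadjusted p under 0.05), and 0% of all genes were called in either (edgeR, 1247 and 1102 genes at an unadjusted p under 0.05, 158 and 82 called by DESeq2, 0 by limma). DESeq2 and limma called 0 members in these last 4 comparisons. Comparisons that share a group of libraries are not independent of each other.

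**Figure D4:**
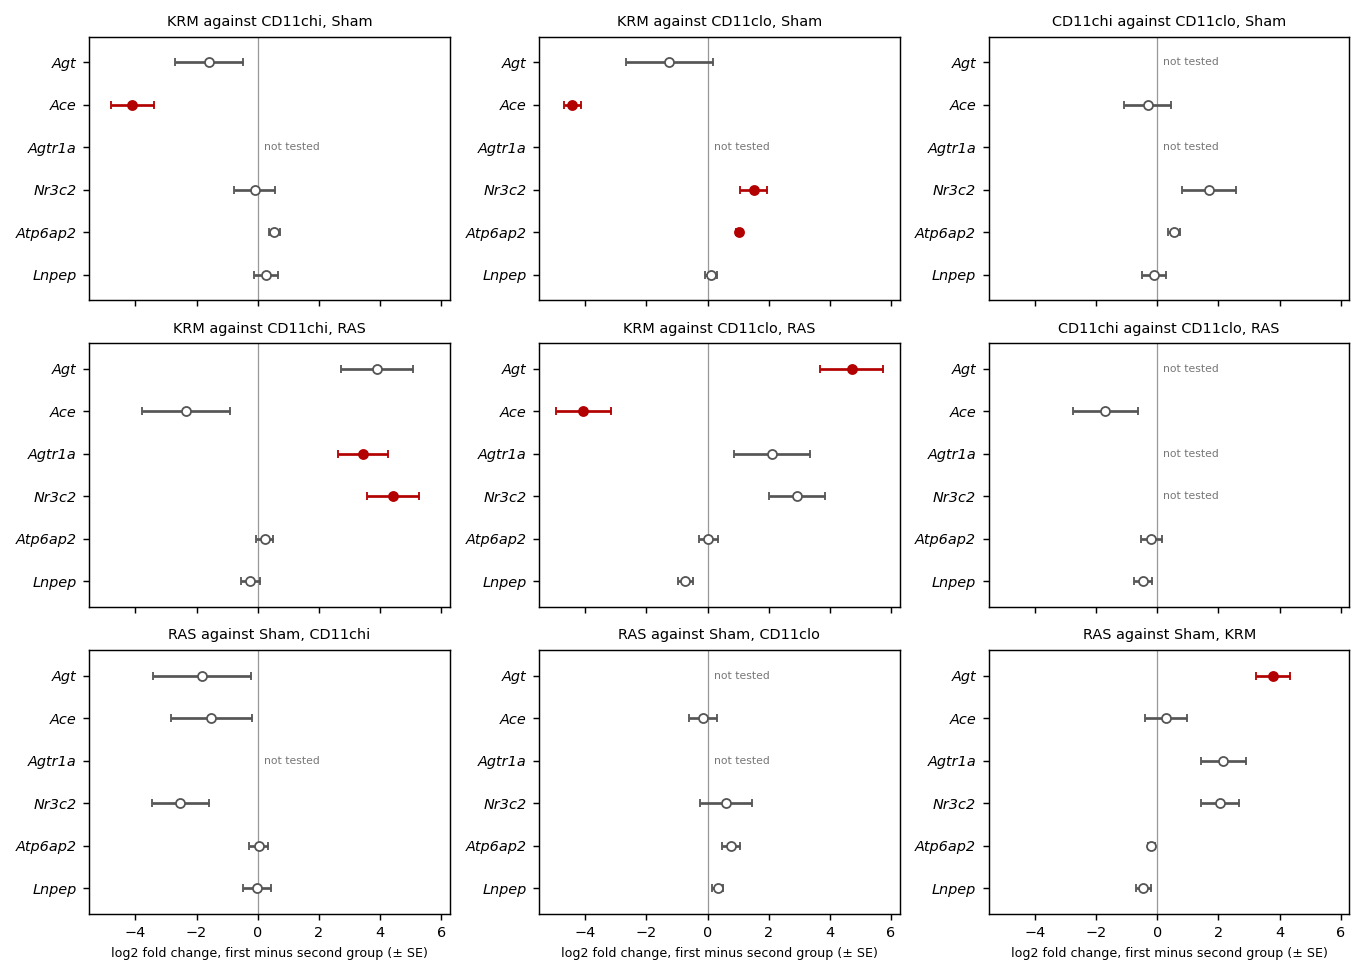
Log2 fold change with its SE for 6 members in 9 comparisons from edgeR, first group minus second, where filled red points have an adjusted p under 0.05 and "not tested" marks members under the filter on low counts. Ace lies to the left in all comparisons of KRM with CD11cloMϕ or CD11chiMϕ, with a called value of -4.42 against CD11cloMϕ in Sham kidneys, and Lnpep has no called value, the farthest from 0 being -0.72.

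The response to RAS in KRM depended on replicate 1. Without KRM RAS replicate 1, which leaves 2 libraries that resemble each other, 6 of 7 members tested were called in KRM, and so were 50.2% of all genes. Ren1, Agt, Agtr1a and Nr3c2 were then higher in RAS, Ace and Lnpep lower, and Atp6ap2 was not called (-0.16, adjusted p = 0.251). Ren1 passed the filter on low counts there only through the RAS libraries, so its direction was set before the test. With all libraries, the difference between the responses of the populations was called for 0 of 7 members for KRM minus CD11chiMϕ and 0 of 7 for KRM minus CD11cloMϕ by edgeR (4 each at an unadjusted p under 0.05), against 0% (3000 genes at an unadjusted p under 0.05) and 0.245% of all genes. DESeq2 called 2 members in each, and limma on the log2 table, in which the column of KRM RAS replicate 1 was closest to a CD11chiMϕ library, called 1 and 3. Over all genes DESeq2 called 1002 of 21451 and 1096 of 21638, and limma called 133 and 1459 of 14020. For CD11chiMϕ minus CD11cloMϕ edgeR, DESeq2 and limma called 0 of 6 (1 at an unadjusted p under 0.05 by edgeR). Of all genes edgeR and limma called 0% and DESeq2 10 of 20626. Agt, for instance, had a difference of 5.48 (adjusted p = 0.123) for KRM minus CD11chiMϕ and 5.93 (adjusted p = 0.113) for KRM minus CD11cloMϕ, and the latter was -1.72 without CD11cloMϕ Sham replicate 3. Over 24 alternatives the adjusted p was 0.0298 to 0.990 and 0.0100 to 0.870.

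Ren1, Agt, Agtr1a and Nr3c2 were concentrated in the libraries that held tubule or stromal RNA, while Ace, Atp6ap2 and Lnpep were not. The 5 libraries richest in tubule RNA, 23.8% of all libraries, held 88.8% of the summed CPM of Ren1, 79.9% of that of Agtr1a, 79.0% of that of Agt and 66.6% of that of Nr3c2. They held 24.8% for Atp6ap2, 19.5% for Lnpep and 16.01% for Ace. KRM RAS replicates 2 and 3 alone, 9.52% of the libraries, held 87.0% for Ren1, 55.8% for Agt, 51.4% for Nr3c2 and 29.3% for Agtr1a. None of the 7 detected members was counted as near kidney cell genes by the measure of likeness, for which at least 5 of its 50 nearest genes had to be among the markers of tubule, podocyte, endothelium or stroma. Ren1 and Nr3c2 had 1 such gene each among the 50 and the others 0. Genes outside these lists could not count, and the measure was not tried on known kidney cell genes. These counts thus do not tell whether a member follows kidney cell RNA. The nearest gene over 21 libraries was Rhpn2 for Ren1 (Pearson r = 0.86), Shank2 for Agt (0.90), Ank3 for Agtr1a (0.94), Ift81 for Nr3c2 (0.90), Tmem66 for Atp6ap2 (0.89) and Stag1 for Lnpep (0.90), with no test.

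Of 19 other genes of the angiotensin pathway, Mrgprd, a receptor for alamandine, had 0 counts in all 21 libraries, and Mas1, the receptor of angiotensin 1-7, had 0 in 15. Peptidases that every library held were Ctsa (606 to 1364 CPM), Rnpep (74.6 to 296 CPM), Prcp (54.4 to 192 CPM), Prep (25.9 to 84.7 CPM), Nln (10.01 to 33.9 CPM), Thop1 (4.38 to 19.1 CPM) and Anpep (1.55 to 96.0 CPM). Klk1 ran from 0.102 CPM, which is 1 count, in CD11chiMϕ Sham replicate 1 to 2121 CPM. Agtrap, whose product binds the type 1 receptor, was at 28.6 to 67.9 CPM in the same libraries. Between RAS and Sham KRM, 14 of the 19 were tested and 3 rose, where 9.7% of all genes were called, with a median log2 fold change of 0.84 against 0.02 over all genes. They were Klk1 (7.18), a kallikrein of the distal nephron, Mme (5.06), the neprilysin gene, and Anpep (1.74), with adjusted p-values of 0.0416, 0.0416 and 0.0140 from edgeR. Klk1 was at 20.8, 2121 and 1476 CPM and Mme at 4.91, 69.9 and 59.3 CPM in the 3 KRM RAS libraries. Klk1 was also at 1245 CPM in CD11chiMϕ Sham replicate 3, where Ren1 was at 2.63 CPM, and in CD11cloMϕ Sham replicate 1, with 14.5 CPM of Ren1, Klk1 was at 3.92 CPM and Mme at 0. Anpep was different, at 21.98 to 27.6 CPM in KRM from RAS kidneys and 5.15 to 9.52 CPM in KRM from Sham kidneys, without overlap. In Sham kidneys 1 of 12 tested was lower in KRM than in CD11chiMϕ (Anpep, -1.86, adjusted p = 0.0169 from edgeR), where 5.13% of all genes were called. With the replicate block 89 of 12380 genes were called in that comparison in place of 635, and the blocked value of Anpep was not computed. Against CD11cloMϕ 2 of 11 were higher (Thop1 and Prcp) and 3 lower (Rnpep, Prep and Agtrap), at log2 fold changes of -0.95 to 0.92, where 41.9% of all genes were called.

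Enpep, the aminopeptidase that makes angiotensin III, was highest in CD11chiMϕ Sham replicate 3, at 53.9 CPM, the library richest in proximal tubule markers. The mast cell proteases Cma1 and Mcpt4 were highest in KRM RAS replicate 1, at 25.8 and 13.7 CPM. They had 0 counts in 11 and 9 libraries. Of the 13 corticosteroid receptor and response genes, 9 were tested between RAS and Sham KRM, where 2 rose and 2 fell against 9.7% of all genes called, with a median of 0.28 against 0.02 over all genes. Scnn1a, an epithelial sodium channel subunit, rose by 5.54 on the log2 scale and Hsd11b1, which regenerates glucocorticoid, by 3.12 (adjusted p = 0.0286 and 0.00367, edgeR). The partner subunits of Scnn1a moved with the distal markers, Scnn1b at 0.112, 169 and 130 CPM and Scnn1g at 0.446, 137 and 108 CPM in the 3 KRM RAS libraries, and the part of tubule RNA in the Scnn1a value was not tested. Fkbp5, a glucocorticoid target, and Zbtb16 fell by 1.81 and 1.68 (adjusted p = 0.0110 and 0.0479, edgeR). Hsd11b1 was at 14.2 to 19.6 CPM in the 3 KRM RAS libraries and at 1.56 to 2.04 CPM in the Sham libraries, and the groups did not overlap. Its response differed from that of CD11cloMϕ by 3.86 (adjusted p = 0.0136 from edgeR), where 0.245% of all genes were called, and from that of CD11chiMϕ by 3.71 (adjusted p = 0.098 from edgeR), which was not called.

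**Figure D5:**
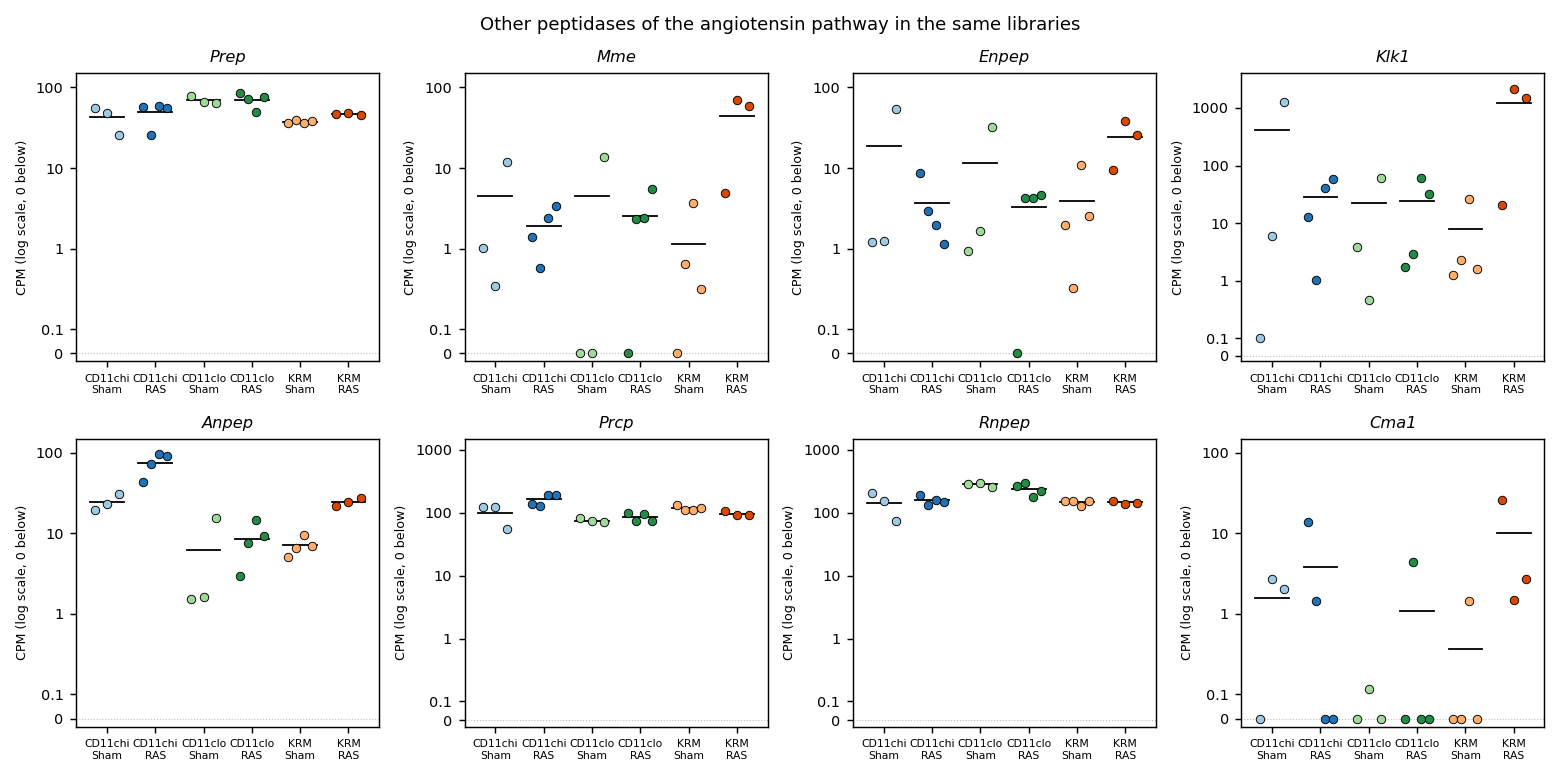
Level of 8 other peptidase genes of the pathway in each library (CPM on a log axis, with 0 drawn at the bottom), where points are libraries and bars are group means. Klk1 and Mme have 2 high KRM RAS libraries (2121 and 1476 CPM of Klk1), and Klk1 is also high (1245 CPM) in CD11chiMϕ Sham replicate 3, while Prcp and Rnpep stay between 54.4 and 296 CPM.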

How the data were processed

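RNA of the sorted cells was made into libraries with an ultra-low-input kit that copies whole transcripts and the Nextera XT kit, and the authors aligned paired-end reads to mm10 with the OSA aligner and Ensembl genes. The authors deposited estimated counts per gene, unscaled, and a second table of quantile-normalized TPM, whose log2 scale was read from the values. Estimated counts were rounded (9.70 to 14.2% of values were not whole) and lines sharing a symbol were summed, which left 34236 names from 37620 lines. Each member had 1 line. Members were named by symbol, and the members, lists and tests were chosen with earlier results of these data known. Levels are counts scaled to a library total of 1000000 (CPM).

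R 4.3.3 and edgeR 4.0.16 were used for testing. Genes had to reach 10 counts in enough libraries and 15 in total (filterByExpr), libraries were scaled by TMM, and a two-sided quasi-likelihood test was fitted to only those groups that a comparison names. Adjustment was by Benjamini-Hochberg over every gene that passed, and a call needed an adjusted p under 0.05. Fold changes are fitted with edgeR's default prior count. Interactions used the 4 groups of a pair of populations. The steps were checked on simulated counts.

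Likeness was the Pearson correlation of log2 CPM (prior count 2) over 21 libraries. All 8 members are named. Other list genes are named where their adjusted p was under 0.05 and their fold change among the 4 largest of a comparison, pathway genes also by their level, and the 5 nearest genes of a member may be named. Akr1b7, Rgs5, Myh11, Umod, Aqp2, Hsd11b2, Scnn1b and Scnn1g are named as markers and were chosen after their values were seen, as were Thop1, Prcp, Rnpep, Prep and Agtrap beyond their levels. Positions are from GENCODE vM21 on GRCm38. Of the 8 members 7 matched the RefSeq promoter table.

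Alternatives were median-of-ratios factors, total library size, no filter, 1 fit over all 6 groups, a replicate block, and each library left out, besides limma 3.58.1 (run on the log2 values) and DESeq2 1.42.0. Chosen after seeing the data were 3 more: leaving out the 5 libraries richest in tubule RNA, summing the nearest pairs of libraries, and dropping KRM RAS replicate 1 from limma. In the log2 table the column of KRM RAS replicate 1 did not correspond to its own counts (Pearson r = 0.689 over 12333 genes, against 0.911 or more for the other columns and theirs). The closest counts were those of CD11chiMϕ RAS replicate 2, and for KRM Sham replicates 2 and 4 those of KRM Sham replicate 1. Replicate numbers from the titles were checked for pairing: in the 3 comparisons of Sham populations, libraries with the same number deviated together in every pair (r from 0.201 to 0.647), so the block is given there where it changes a call. In every other comparison at least 1 pair was at 0.0758 or below, which does not settle whether the libraries are paired. Between populations of RAS kidneys every pair was positive (r from 0.0535 to 0.505). The block is given there where it ended the call of a member. No column was left unmatched.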

Additional observations from a re-analysis of the deposited data

Results flagged for a closer look

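In each group of 4 libraries, the highest and lowest values of every member were compared with the rest. Of 21 such groups, 3 held a library whose gap to its nearest neighbour exceeded Dixon's critical share of the range for 4 values. Chance gives about 1 in 20 for normally distributed values, which CPM values need not be, so the number flagged was not compared with that rate. Ren1 was at 0.161 CPM in KRM Sham replicate 3 and at 0 in the other 3 libraries, a difference of 3 counts. With the others all at 0, any count would have been flagged. Ace was at 244 CPM in CD11chiMϕ RAS replicate 1 and at 3.66 to 37.4 CPM in the others of that group. Atp6ap2 was at 364 CPM in KRM Sham replicate 1 and at 417 to 424 CPM in the other KRM Sham libraries.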

How the results depend on the processing

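Ace and Atp6ap2 between KRM and CD11cloMϕ from Sham kidneys kept their direction and call under all 15 alternatives. For KRM against CD11chiMϕ in Sham kidneys the number of members called, 1, became 0 with the replicate block, 2 with DESeq2 and 0 with limma. Over all genes 635 of 12380 were called, 89 of 12380 with the block, 1486 of 18994 with DESeq2 and 389 of 14020 with limma. In RAS kidneys the 2 called against CD11chiMϕ became 0 with the replicate block, 0 without the libraries richest in tubule RNA, 0 with the nearest pairs summed and 4 with limma without KRM RAS replicate 1. The 2 called against CD11cloMϕ became 4 with the block, 4 with DESeq2, 0 without the libraries richest in tubule RNA, 0 with pairs summed and 5 with limma without KRM RAS replicate 1. For RAS against Sham in KRM the 1 called became 2 with no filter, 0 with the block, 4 with DESeq2, 3 with limma, 0 with pairs summed and 6 with limma without KRM RAS replicate 1. Over all genes 1247 of 12852 were called there, 1616 of 20955 with no filter, 42 with the block and 3568 of 20813 with DESeq2. Limma called 2599 of 14020, and 7354 of 14020 without KRM RAS replicate 1. Against CD11chiMϕ in RAS kidneys it was 1221 of 13226 genes, 101 with the block and 2284 of 14020 with limma without that library. Against CD11cloMϕ it was 1208 of 13179, 1117 with the block and 3123 of 20728 with DESeq2. For the response of KRM minus that of CD11chiMϕ the 0 called became 2 with DESeq2, 1 with limma and 3 with limma without KRM RAS replicate 1. For KRM minus CD11cloMϕ the 0 called became 1 with no filter, 1 with 1 fit over all groups, 2 with DESeq2, 3 with limma and 4 with limma without KRM RAS replicate 1. Over all genes, limma without KRM RAS replicate 1 called 3498 of 14020 for KRM against CD11cloMϕ in RAS kidneys. It called 1094 of 14020 for the response of KRM minus that of CD11chiMϕ and 3932 of 14020 for KRM minus CD11cloMϕ. For KRM minus CD11cloMϕ 74 of 21876 genes were called with no filter and 58 of 14504 with 1 fit over all groups. The cause of these changes was not tested.

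When single libraries were left out, the members called numbered 0 to 1 for KRM against CD11chiMϕ and 2 to 5 for KRM against CD11cloMϕ in Sham kidneys, and 0 to 4 and 0 to 5 in RAS kidneys. They numbered 0 for CD11chiMϕ against CD11cloMϕ in Sham kidneys, 0 to 1 in RAS kidneys (Ace, without CD11chiMϕ RAS replicate 1), 0 for RAS against Sham in either monocyte-derived population and 0 to 6 in KRM. For the differences of responses they numbered 0 to 2, 0 to 2 and 0, and the number of members near kidney cell genes was 0 throughout.

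Of the member results with an unadjusted p under 0.05, and of Ace in every comparison of 2 groups, those of Ace, Nr3c2 and Agt turned in direction as follows. Of the 31 other member results, 18 changed sign under at least 1 alternative and 4 were called under at least 1. Ace between CD11chiMϕ and CD11cloMϕ in Sham kidneys (-0.32) was 0.53 without the libraries richest in tubule RNA, 0.16 without CD11chiMϕ Sham replicate 3 and 0.06 without CD11cloMϕ Sham replicate 3, with a lowest value of -1.12 over single libraries left out. Ace between RAS and Sham in CD11cloMϕ (-0.16) was 0.24 without the libraries richest in tubule RNA, which there is the same as leaving out CD11cloMϕ Sham replicate 3, and 0.13 without CD11cloMϕ RAS replicate 3, with a lowest value of -0.38 over single libraries left out. Ace between RAS and Sham in KRM (0.28) was -0.21 with the replicate block, -0.61 with limma, -1.38 with limma without KRM RAS replicate 1 and -1.36 without that library, with a highest value of 0.68 over single libraries left out. Nr3c2 in the same comparison was -0.22 without the libraries richest in tubule RNA. Agt in the response of KRM minus that of CD11cloMϕ (5.93) was -3.09 without the libraries richest in tubule RNA and -1.72 without CD11cloMϕ Sham replicate 3, with a highest value of 7.08 over single libraries left out. Leaving out those libraries leaves 1 KRM RAS library. Depth sets a limit of 0.161 to 0.435 CPM for a gene with 0 counts.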
